A study of Mus musculus with 34 samples.

Results

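The transcripts of 10 genes of the Notch pathway were followed in single cells of mouse ear skin: the receptor genes *Notch1*, *Notch2* and *Notch3*, the ligand gene *Jag1*, the gene of the DNA-binding protein *Rbpj*, and the target genes *Hes1*, *Hey1*, *Hey2*, *Heyl* and *Nrarp*. They were chosen by name from the 25852 genes listed over the count tables, with earlier results of these data known. Mast cells (MCs) had been sorted as CD45+ Lin- YFP+ cells from the ear skin of male mice aged 7 weeks. The 3 WT mice carried Mcpt5-Cre, intact Tln1 and the R26 LSL:YFP reporter, and the 3 KO mice (Tln1ΔMC) carried Mcpt5-Cre, floxed Tln1 on both alleles and the same reporter. Both genotypes therefore carried the Cre, which is driven by the promoter of a connective tissue MC protease and restricts the deletion of talin-1, the protein that links integrins to actin, to MCs. The other cells, called Myh11-GFP cells, were sorted by GFP that is driven by the smooth muscle myosin promoter, also from ear skin; mice of all strains used were aged 7 to 12 weeks, but the number and sex of the animals behind these libraries were not given in the sources used here, so their 4 libraries were treated as 1 sample.

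Of 2807 cells with over 1000 transcripts, 2477 were MCs (338, 294 and 272 in the WT mice and 285, 354 and 934 in the KO mice) and 330 were Myh11-GFP cells (93, 78, 86 and 73 in libraries 13, 14, 15 and 16). KO mouse 3 gave 10 MC libraries and each other mouse 4, so shares and ratios over all MCs weigh KO mouse 3 most. The median depth was 4578 to 7097 transcripts per cell over the mice and 4593 in the Myh11-GFP cells. A level is given throughout as transcripts per 10,000 transcripts outside the genes named Gm plus a number, which took 14.2% to 58% of a mouse's transcripts. Each RNA molecule was counted once from its end, so levels of different genes were compared with no division by gene length. The 9 mast cell markers summed to between 633 and 866 per 10,000 in the mice and to 0.194 in the Myh11-GFP cells, where *Mcpt4*, *Cma1*, *Tpsb2*, *Fcer1a* and *Ms4a2* were at 0. The Myh11-GFP cells held 82.3 per 10,000 of vascular smooth muscle transcripts, 127.1 of pericyte transcripts and 187.4 of fibroblast transcripts, so the label covered a mixture, and 83 of the 330 cells carried keratinocyte or fibroblast markers at 1% or more of their transcripts. Endothelial markers stood at 0.876 per 10,000 in the Myh11-GFP cells and at 0.0697 to 0.295 in the mice.

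Notch receptors are membrane proteins that are cut when a ligand of the Jagged or Delta-like kind on a neighbouring cell binds them. The freed intracellular part enters the nucleus, joins RBPJ on DNA and turns on genes of the HES and HEY repressor families and *Nrarp*, whose product limits the signal. In the vessel wall NOTCH3 is known as the receptor of smooth muscle cells and pericytes, and JAG1 as a ligand shared by endothelium and smooth muscle.

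The 10 genes fell apart by cell type. *Notch3*, *Jag1*, *Hey1*, *Hey2* and *Heyl* were higher in all 4 Myh11-GFP libraries than in all 6 mice, as were 13.6% of the 16562 genes with at least 10 transcripts in either kind of cell, while no member was lower in all 4 libraries than in all mice, against 16.9% of the genes. *Notch1*, *Notch2*, *Rbpj* and *Hes1* overlapped between the kinds of cell, with the pooled Myh11-GFP level inside the range of the mice, and *Nrarp* was close to 0 in both. *Hes1* made up 64.2% of the 5317 member transcripts in MCs, and *Notch3* made up 54.7% of the 2656 in Myh11-GFP cells. With the Myh11-GFP libraries standing as 1 sample no test between the kinds of cell was possible, and the intervals below are exact 95% intervals that cover counting error only.

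**Figure D1:**
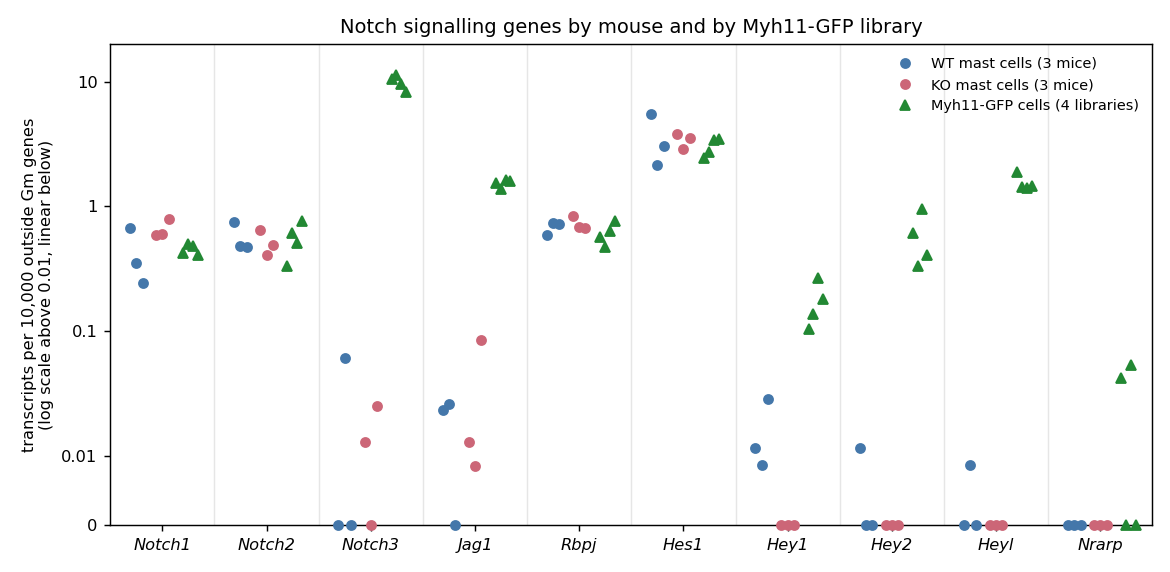
Level of each Notch pathway gene (vertical axis, transcripts per 10,000 outside Gm genes, log scale above 0.01 and linear below) in 3 WT mice (blue circles), 3 KO mice (red circles) and 4 Myh11-GFP libraries (green triangles). *Notch3* stands at 8.26 to 11.2 in the libraries against at most 0.0610 in a mouse, whereas the points of *Notch1*, *Notch2*, *Rbpj* and *Hes1* overlap.

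Among the receptors, *Notch3* (chr17:32120820-32166852, minus strand, GRCm38) had the highest level of the 10 genes in Myh11-GFP cells. It was at 10.5, 11.2, 9.62 and 8.26 per 10,000 in libraries 13 to 16. In MCs it was at 0, 0.0610 and 0 in the WT mice and at 0.0128, 0 and 0.0248 in the KO mice. All 4 libraries were far above every mouse. The pooled ratio was 476 (310 to 771), from 1452 transcripts in the Myh11-GFP cells and 21 in all MCs. At least 1 transcript was seen in 82.4% of Myh11-GFP cells and in 0.525% of MCs. With each cell thinned to 1000 UMIs the shares were 54.7% (49.2 to 60.2) of 329 cells and 0.121% of 2475. Those UMIs were drawn from all genes, including the Gm genes, which took 18.6% of transcripts in Myh11-GFP cells and 14.2% to 58% in the mice. Thinned shares are therefore not matched in depth outside Gm genes. The few MC transcripts were concentrated in few wells. A well of WT mouse 2 held 4 of that mouse's 7 *Notch3* transcripts together with 34 pericyte-marker transcripts, and the mouse stood at 0.0263 without it. The 300 bases around the *Notch3* start (250 before and 50 after, RefSeq, GRCm38.p6) are shown because this gene carried the largest share of the Notch transcripts in these cells; they hold no copy of GTGGGAA, the letters bound by RBPJ that were searched, on either strand.

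*Notch3*, chr17:32166841-32167140, minus strand: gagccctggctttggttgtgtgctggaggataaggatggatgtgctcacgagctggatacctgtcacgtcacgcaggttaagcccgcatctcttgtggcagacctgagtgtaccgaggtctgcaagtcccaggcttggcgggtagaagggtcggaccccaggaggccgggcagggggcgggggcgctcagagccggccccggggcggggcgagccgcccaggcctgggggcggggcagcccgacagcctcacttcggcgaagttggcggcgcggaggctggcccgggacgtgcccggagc

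*Notch1* (chr2:26457903-26516663, minus strand), a receptor with broad expression in blood cells, was at 0.670, 0.349 and 0.243 per 10,000 in the WT mice and at 0.590, 0.603 and 0.785 in the KO mice. The Myh11-GFP libraries stood at 0.418, 0.496, 0.478 and 0.406, inside that range over mice, and the pooled ratio to MCs was 0.696 (0.530 to 0.899), with KO mouse 3, which had both the most cells and the highest level, weighing most. *Notch2* (chr3:98013527-98150361, plus strand) was at 0.751, 0.479 and 0.472 in the WT mice and at 0.641, 0.407 and 0.485 in the KO mice. Its libraries stood at 0.334, 0.606, 0.504 and 0.767, with a pooled ratio of 1.01 (0.779 to 1.29). The pooled Myh11-GFP level of both receptors lay inside the range of the mice, and for *Notch2* it was 0.514 against 0.510 in all MCs. On barcodes taken as unused, *Notch2* was at 3.09 per 10,000 in WT mouse 1 and 1.70 in KO mouse 1, from 9 and 5 transcripts. In the other mice it was at 0 to 0.516 there. Over all MC libraries these barcodes held *Notch2* at 0.733 and *Notch1* at 0.414, the latter below its 0.649 in MCs. The part of such transcripts in the MC levels was not tested. A transcript of *Notch1* was seen in 19.8% of MCs and of *Notch2* in 16.5%, and after thinning the shares were 4.20% and 3.64%. Before thinning they were 31.6% and 21.4% in KO mouse 3, and at most 15.8% and 16.6% in any other mouse.

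*Jag1* (chr2:137081456-137116644, minus strand), the ligand gene, was at 1.53, 1.38, 1.62 and 1.58 per 10,000 in the Myh11-GFP libraries, close together. In MCs it was at 0.0231, 0.0261 and 0 in the WT mice and at 0.0128, 0.00849 and 0.0843 in the KO mice. The highest of these values rested on 1 well. In library 8 of KO mouse 3 a well with 431991 transcripts, among them 12264 of keratinocyte markers and 1104 of mast cell markers, held 38 of that mouse's 44 *Jag1* transcripts and 5 of its 13 *Notch3* transcripts. Without it *Jag1* stood at 0.0124 in KO mouse 3. The pooled ratio of Myh11-GFP cells to MCs was 29.5 (21.7 to 40.9) with that well included and 111.2 (63.7 to 212) without it. For *Notch3* the ratio without it was 599 (368 to 1051).

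*Rbpj* (chr5:53466152-53657362, plus strand), through which all Notch receptors act on DNA, did not separate the kinds of cell. It was at 0.589, 0.732 and 0.715 per 10,000 in the WT mice, at 0.833, 0.679 and 0.668 in the KO mice, and at 0.564, 0.468, 0.637 and 0.767 in the libraries. The pooled ratio was 0.860 (0.678 to 1.08), and a transcript was seen in 19.7% of MCs and 22.7% of Myh11-GFP cells.

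Of the target genes, *Hes1* (chr16:30064384-30067796, plus strand) was the only member above 1 per 10,000 in both kinds of cell. It was at 5.47, 2.14 and 3.02 in the WT mice and at 3.78, 2.86 and 3.53 in the KO mice. The Myh11-GFP libraries stood at 2.42, 2.73, 3.43 and 3.43. WT mouse 1 was the highest, and the libraries lay within the range of the other mice. Over the 30 MC libraries the level ran from 1.47 through a median of 3.33 to 6.68. A *Hes1* transcript was seen in 46.8% of MCs and in 50.6% of Myh11-GFP cells, or in 17.7% and 22.2% after thinning, and the pooled ratio was 0.847 (0.764 to 0.938).

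The HEY genes code for repressors related to HES proteins and are known targets of Notch in the cardiovascular system. *Heyl* (chr4:123233556-123249875, plus strand) was at 1.88, 1.43, 1.41 and 1.44 per 10,000 in libraries 13 to 16, from 227 transcripts, and all MCs together held 1 transcript. *Hey2* (chr10:30832359-30842801, minus strand) was at 0.606, 0.330, 0.956 and 0.406, from 86 transcripts in 18.2% of the cells, and all MCs held 1 transcript. *Hey1* (chr3:8663359-8667256, minus strand) was lower, at 0.104, 0.138, 0.266 and 0.181 from 24 transcripts, against 4 transcripts in MCs, all of them in WT mice. The order of the HEY levels in Myh11-GFP cells was thus *Heyl*, *Hey2* and *Hey1*, with the libraries of *Heyl* above all those of *Hey2* and the lowest library of *Hey2* above the highest of *Hey1*. With so few MC transcripts the ratios were wide, at 1562 (277 to 61955) for *Heyl*, 592 (103.4 to 23639) for *Hey2* and 41.3 (14.2 to 163.7) for *Hey1*.

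*Nrarp* (chr2:25180758-25183339, plus strand) was seen 4 times in Myh11-GFP cells, at 0.0418 and 0.0531 per 10,000 in libraries 13 and 15 and at 0 in the other 2, and not at all in 2477 MCs. Its pooled level was 0.0278 (0.00757 to 0.0711) in Myh11-GFP cells, and the count of 0 in MCs allows a level of up to 0.00303 per 10,000 (3 counts), for counting error only. With this few transcripts per cell, an MC with none seen may still have held some.

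The letters GTGGGAA or their reverse complement TTCCCAC, searched on both strands, occurred in 6.38% of 32851 RefSeq promoter windows of 300 bases. The table held windows for 7 of the 10 members; *Hes1*, *Hey1* and *Heyl* were not among them. *Hey2* held 2 matches and the other members none, and a CArG box, the kind of site bound by serum response factor, was in 1.63% of windows and in no member. The *Hey2* window is shown because its matches lie on opposite strands, one at bases 44 to 50 and the other at bases 247 to 253, both in capitals. These are matches of letters and no binding was measured.

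*Hey2*, chr10:30842734-30843033, minus strand: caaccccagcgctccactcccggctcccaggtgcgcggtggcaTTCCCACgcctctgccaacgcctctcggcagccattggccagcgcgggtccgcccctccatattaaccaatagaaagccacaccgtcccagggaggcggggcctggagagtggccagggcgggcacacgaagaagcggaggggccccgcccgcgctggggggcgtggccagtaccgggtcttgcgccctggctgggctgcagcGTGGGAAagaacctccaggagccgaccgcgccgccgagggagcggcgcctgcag

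A list of 56 other genes of the pathway was read the same way, and 53 of them had a transcript in MCs and 51 in Myh11-GFP cells. Of the 49 with at least 10 transcripts in either kind of cell, 9 (18.4%) were higher in all 4 libraries than in all mice and 12 (24.5%) were lower, beside 13.6% and 16.9% of all genes, so neither share is far from the background. The higher genes included *Dlk1*, which codes for a ligand-like protein without the usual receptor-binding domain, at 1.03 against at most 0.139, and the ubiquitin ligase gene *Mib1*, which serves ligand uptake, at 0.931 against 0.384 to 0.589. They also included the related *Neurl1b* at 0.521 against at most 0.0231, and *Dtx3* of the deltex family at 1.96 against 0.684 to 1.098. The lower genes included *Furin*, whose protease cuts the receptor during its maturation, at 0.972 against 6.59 to 9.502, the gamma-secretase gene *Psen2* at 0.521 against 3.36 to 5.13, and the corepressor gene *Ncor1* at 2.84 against 5.55 to 9.05. The protein O-fucosyltransferase gene *Pofut1*, at 0.257 in Myh11-GFP cells and 0.209 to 0.601 in mice, led the glycosyltransferases in both and overlapped. Other receptors and ligands were scarce, with *Notch4* at 0.0486 in Myh11-GFP cells and at most 0.0347 in mice, and *Jag2* at 0.0139 and at most 0.0344. Among the further HES genes *Hes6* was the highest, at 0.0769 to 0.244 in mice and 0.0556 in Myh11-GFP cells.

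The Myh11-GFP cells were then ordered by their summed share of 7 contractile genes (*Acta2*, *Myh11*, *Tagln*, *Cnn1*, *Smtn*, *Lmod1* and *Des*) and divided into contractile-low, contractile-mid and contractile-high ranges of 110 cells each. These are ranges of a score and not cell types. A member was called higher or lower where the intervals of its low and high levels did not overlap. That rule is stricter than a ratio interval that leaves out equality. *Notch3*, *Jag1*, *Hes1*, *Hey2* and *Heyl* were higher in contractile-high than in contractile-low cells with intervals that did not overlap, in each case in 4 of 4 libraries, and no member was lower; over all 7845 genes with at least 20 transcripts, 7.37% were higher and 8.5% lower by the same rule. *Hey2* had the steepest gradient, at 0.146, 0.449 and 1.26 per 10,000, a ratio of 8.66 (4.12 to 20.99). *Hes1* was at 1.44, 3.17 and 4.43, a ratio of 3.08 (2.36 to 4.04), and *Jag1* at 0.856, 1.49 and 2.33, a ratio of 2.72 (1.92 to 3.92). *Heyl* at 1.17, 1.70 and 1.95 and *Notch3* at 7.67, 11.8 and 11.4 were flatter, with ratios of 1.67 (1.199 to 2.34) and 1.49 (1.31 to 1.69). The intervals of *Notch1*, *Notch2*, *Rbpj*, *Hey1* and *Nrarp* overlapped, and the point values of *Hey1* ran the other way, from 0.219 to 0.0641.

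Fibroblast markers moved with the score. They summed to 391, 75.04 and 49.5 per 10,000 in the contractile-low, -mid and -high cells, pericyte markers to 104.1, 165.9 and 119.03, keratinocyte markers to 17.7, 1.14 and 0.534, and endothelial markers to 2.26, 0.0236 and 0.0214. The median depth was 5364, 4195 and 4662 transcripts. In each alternative that follows, the ranges were drawn anew from the cells and counts used, so they are not the ranges above with cells removed. With the 83 cells that carried keratinocyte or fibroblast markers left out, the ratio of *Notch3* was 1.05 (0.903 to 1.22) and that of *Heyl* 1.504 (1.01 to 2.26) with overlapping levels. *Hes1* at 3.2 (2.29 to 4.55), *Jag1* at 2.19 (1.49 to 3.27) and *Hey2* at 4.69 (2.26 to 10.9) stayed apart without those cells. *Hey1* was then lower in contractile-high cells, on 1 transcript against 11 in contractile-low cells, with a ratio of 0.0852 (0.00198 to 0.586). In the 83 cells *Notch3* was at 7.47 and *Hey2* at 0.228, against 11.2 and 0.759 in the other 247. After thinning each cell to 1000 UMIs the intervals of *Hes1* stayed apart, at a ratio of 2.91 (1.595 to 5.61), and those of the other 4 overlapped on fewer counts. *Notch3* was then at a ratio of 1.32 (0.990 to 1.77), *Jag1* at 1.898 (0.810 to 4.80), *Hey2* at 2 against 12 transcripts, and *Heyl* at 1.01 (0.469 to 2.20). The call of *Heyl* also ended without 8 wells on barcodes taken as unused, all of them contractile-low, at a ratio of 1.54 (1.11 to 2.15). It ended as well without library 16, at 1.49 (1.05 to 2.14), and when the cells were divided at the median, at 1.26 (0.959 to 1.65). The ratio intervals of *Heyl* without the 83 cells, without the 8 wells and without library 16 still left out equality.

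When the same cells were ordered by 7 pericyte markers in place of the contractile genes, only *Notch3* and *Heyl* had intervals apart. *Notch3* was at 5.90, 11.4 and 12.5 per 10,000 from pericyte-low to pericyte-high cells, a ratio of 2.12 (1.84 to 2.46), and *Heyl* at 0.814, 1.67 and 2.16, a ratio of 2.65 (1.81 to 3.95). The levels of the other members overlapped by their intervals, and over all genes 6.39% were higher and 5.95% lower in pericyte-high cells by the same rule. *Jag1* and *Hes1* had ratios of 1.23 (0.877 to 1.73) and 1.15 (0.901 to 1.46). The point values of *Hey2* ran the other way at 0.858, 0.493 and 0.462, a ratio of 0.539 (0.310 to 0.918). So did those of *Notch2* at 0.704, 0.493 and 0.366, a ratio of 0.520 (0.278 to 0.945). The ratio intervals of *Hey2* and *Notch2* left out equality, although their level intervals overlapped. *Hey1* had a ratio of 0.389 (0.0875 to 1.39). The orderings were nearly unrelated, with a Spearman rho of 0.0181 over 330 cells of 4 libraries given as a description, and 25 cells were in the upper range of both. The difference between the orderings was not tested, and for *Heyl* the intervals of both ratios overlapped. Fibroblast markers moved with this score too, at 437, 75.1 and 69.7 per 10,000, and their part in either pattern was not tested beyond the cells left out above.

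**Figure D2:**
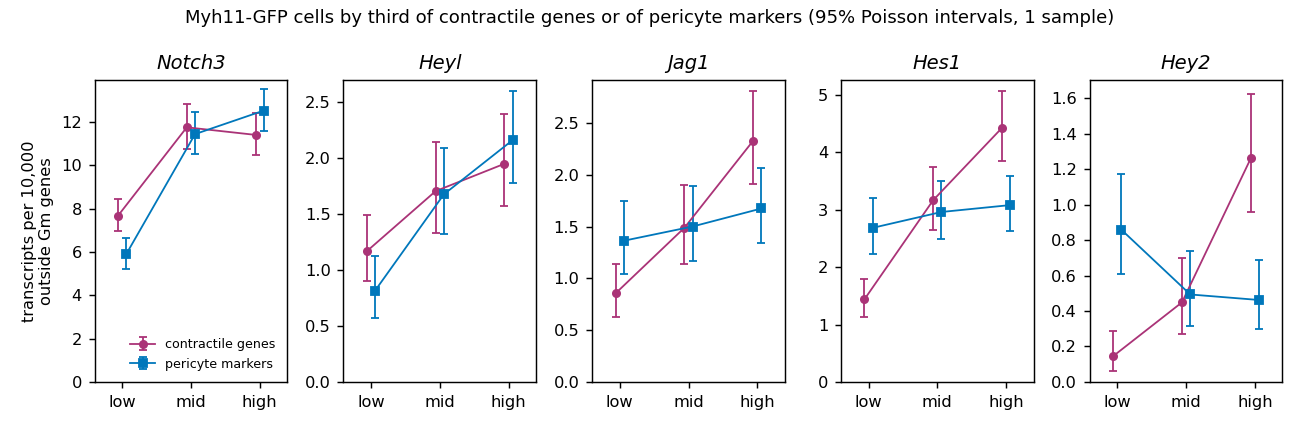
Levels (vertical axes, transcripts per 10,000 outside Gm genes, each starting at 0) of 5 genes in low, mid and high ranges of 110 Myh11-GFP cells, ordered by contractile genes (purple circles) or pericyte markers (blue squares), with exact 95% Poisson intervals that cover counting error only. *Hey2* goes from 0.146 to 1.26 by contractile genes and from 0.858 to 0.462 by pericyte markers, and *Notch3* goes from 5.90 to 12.5 by pericyte markers.

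Genes whose level across single cells was most like that of a member were named as a description; the cells share libraries, depth and the scores above. In the 330 Myh11-GFP cells, over 2367 genes, those most like *Notch3* were *Rgs5* (Pearson r = 0.467), *Mylk* (0.458), *Pdgfrb* (0.412), *Ano1* (0.404) and *Cald1* (0.398). *Rgs5* and *Pdgfrb* are pericyte markers and *Mylk* and *Cald1* code for proteins of the contractile apparatus. Those most like *Hes1* in these cells were *Mylk* (0.294), *Fos* (0.264), *Sorbs2* (0.256), *Acta2* (0.256) and *Actb* (0.255). In the 2477 MCs, over 8234 genes, *Dusp1* (0.364), *Junb* (0.358), *Fos* (0.333), *Egr1* (0.318) and *Nr4a1* (0.316) were most like *Hes1*, all of them immediate-early genes, which are switched on within minutes of a stimulus. Over the same 8234 genes the receptor *Notch2* had rank 582 (0.081), *Notch1* rank 4241 (0.025) and the effector *Rbpj* rank 4573 (0.022). These 3 were seen in only 16.5%, 19.8% and 19.7% of MCs, and the part of such sparse counts in their low r was not tested.

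Each mouse's MCs were divided at the median of their summed share of 14 immediate-early genes, among which no Notch gene stood, into IEG-low and IEG-high cells. The IEG-high cells held *Hes1* at 8.04, 3.43 and 4.38 per 10,000 in the WT mice and at 5.53, 4.00 and 5.95 in the KO mice. The IEG-low cells held 1.82, 1.197 and 1.51 and, in the KO mice, 1.85, 1.56 and 1.597. Every IEG-high value lay above every IEG-low value, and the IEG-low values of the 6 mice lay close together. The mean log2 difference, with 0.05 added to each level, was 1.64 ± 0.29 (SD, n = 6), higher in 6 of 6 mice, with p = 0.03125 by an exact two-sided sign-flip permutation test over mice, the smallest its 64 sign flips can give, and a Benjamini-Hochberg adjusted p of 0.0938 over the 6 members tested. Of 13612 genes with at least 20 transcripts in MCs, 3.68% were higher in the IEG-high cells of all 6 mice and 4.57% were lower. A *Hes1* transcript was seen in 32.9% of IEG-low and 60.7% of IEG-high cells, and in 9.87% and 25.4% after thinning.

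*Rbpj* was lower in IEG-high cells in 6 of 6 mice, by a mean log2 difference of −0.47 ± 0.36 (SD, n = 6; exact permutation p = 0.03125, adjusted 0.0938). With all transcripts, Gm genes included, as the denominator of both the score and the levels, the difference was 0.30. That setting also divided the cells anew into IEG-low and IEG-high, and which of these changes moved the value was not tested. *Notch1* and *Notch2* showed no common direction, at −0.05 ± 0.32 and 0.13 ± 0.39 (SD, n = 6; exact permutation p = 0.75 and 0.469). *Jag1* was at −0.65 ± 0.63 and *Notch3* at 0.19, both from few transcripts. The value of *Jag1* was −0.39 without the well of 431991 transcripts and −0.22 without the cells that carried macrophage or keratinocyte markers. The IEG-high cells had a median depth of 4567 to 7157 transcripts and the IEG-low cells of 4302 to 6958. Macrophage markers reached 22.3 per 10,000 in IEG-high and 55.3 in IEG-low cells of a mouse, and keratinocyte markers 6.55 and 47.4. Fibroblast markers were uneven in both directions. They were at 6.71 in IEG-high and 138.7 in IEG-low cells of WT mouse 2, and at 97.2 and 6.20 in WT mouse 3. The part of these markers in the difference was not tested, apart from 1 value. The mean log2 difference of *Hes1* was 1.61 without the cells that carried macrophage or keratinocyte markers at 1% or more. Cells with fibroblast markers stayed in that comparison.

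**Figure D3:**
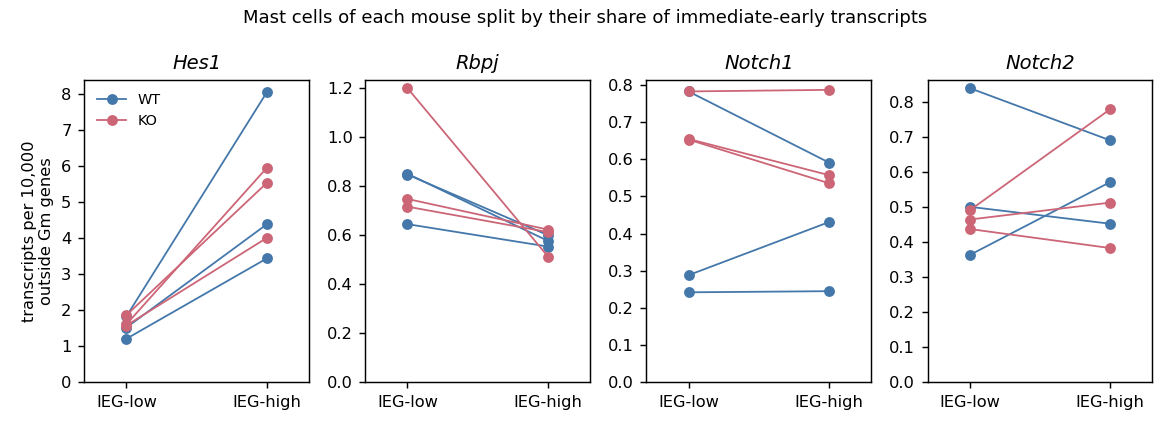
Level (vertical axes, transcripts per 10,000 outside Gm genes, each starting at 0) of 4 Notch pathway genes in IEG-low and IEG-high MCs, with 1 line per mouse (WT blue, KO red). All 6 lines of *Hes1* go up, from 1.197 to 1.85 on the left to 3.43 to 8.04 on the right, all 6 of *Rbpj* go down, and those of *Notch1* and *Notch2* cross.

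The comparison of WT with KO MCs asked whether the loss of talin-1 in MCs goes with a change in transcripts. The targeted gene *Tln1* was at 4.51, 5.92 and 6.71 per 10,000 in the WT mice and at 5.57, 4.33 and 3.63 in the KO mice; the genotypes overlapped (log2 fold change −0.31, SE 0.25, limma with Benjamini-Hochberg adjusted p = 0.90). Whether the counted end of *Tln1* lies in the deleted part was not given in the sources used here, so this level does not check the labels.

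No Notch gene was called between the genotypes. *Notch1*, *Notch2*, *Rbpj* and *Hes1* had enough transcripts to be tested, and the other 6 did not. Of all 9233 genes tested by limma 0 were called at an adjusted p under 0.05 (0%), 517 had an unadjusted p under 0.05, and a fit with voom weights also called 0. *Notch1*, on average, was at 0.421 ± 0.223 (SD, n = 3) per 10,000 in WT and 0.659 ± 0.109 in KO mice (log2 fold change 0.78, SE 0.32, limma adjusted p = 0.873). Its unadjusted limma p was 0.0389, but WT mouse 1 at 0.670 stood above KO mice 1 and 2. *Notch2* differed by −0.11 (SE 0.25, adjusted p = 0.971), *Rbpj* by 0.13 (SE 0.21, 0.961) and *Hes1* by 0.07 (SE 0.29, 0.985) on the log2 scale in the same limma fit. The plain means of *Hes1*, 3.54 ± 1.72 (SD, n = 3) in WT and 3.39 ± 0.475 in KO mice, stood in the opposite order to this difference of log values, so no direction is given for it. For none of the 4 did the 3 mice of one genotype lie outside the 3 of the other, as they did for 11.3% of the genes tested.

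**Figure D4:**
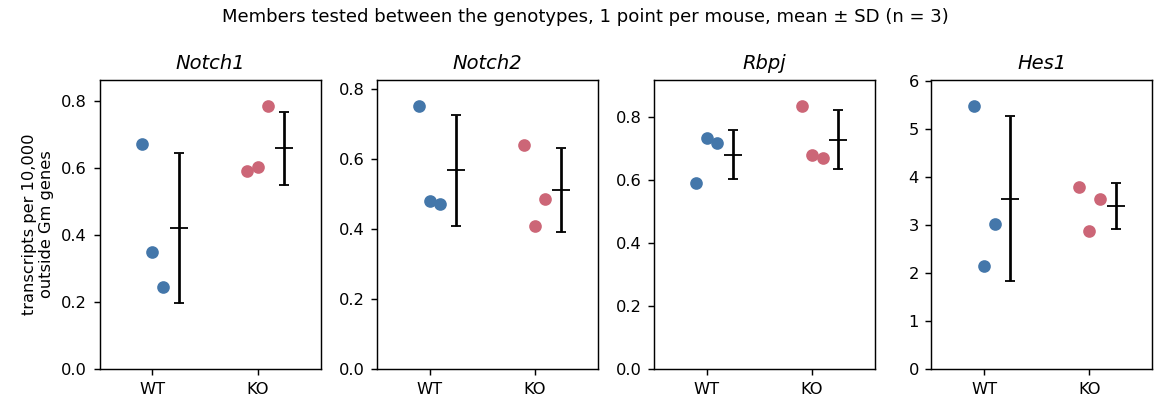
Level (vertical axes, transcripts per 10,000 outside Gm genes, each starting at 0) of the 4 Notch pathway genes tested between genotypes, 1 point per mouse, with mean ± SD (n = 3) beside them. The WT and KO points overlap in each panel, and the WT mean of *Notch1* is 0.421 against 0.659 in KO.

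The mice also differed in ways that the genotype does not explain. The barcodes taken as unused gave *Gm10800* 21.4% and 20.8% of their transcripts in WT mouse 1 and KO mouse 1. The share was 40.6% to 43.2% in WT mice 2 and 3 and KO mouse 2, and 4.90% in KO mouse 3. Within the first of these sets *Notch1* was at 0.670 in WT and 0.590 in KO (log2 ratio −0.18), and within the second at a mean of 0.296 in WT and 0.603 in KO (1.03), so its direction differed between them. *Hes1* was also split, at −0.53 and 0.15, as was *Rbpj*, at 0.50 and −0.09, whereas *Notch2* was at −0.23 and −0.22. KO mouse 3 stood in a set of its own and has no WT partner.

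Of the 56 other pathway genes 36 were tested in the same limma fit and 0 were called, with 5 at an unadjusted p under 0.05. Their median log2 fold change was 0.07, beside 0.10 for the 4 members and 0.01 for all genes. The mice of one genotype lay outside those of the other for 7 of the 36 (19.4%, beside 11.3% of all genes). Among them were genes of coactivators and corepressors of transcription, of which *Ep300*, *Ncor1* and *Hdac1* were higher and *Maml1* and *Ctbp2* lower in the KO mice. *Ncor1*, the most abundant of the corepressor genes, was at 7.58, 5.55 and 5.65 per 10,000 in the WT mice and at 9.05, 8.81 and 8.18 in the KO mice. The 3 KO mice stood above the 3 WT mice, but the difference did not pass the test.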

How the data were processed

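Single cells were processed by the authors with mCEL-Seq2 and mapped to mm10 (submitters' notes: bcl2fastq 2.17.1.14, BWA 0.6.2-r126). The deposited tables hold transcript counts, which are UMI counts that the authors corrected for collisions among 4096 UMIs and which are therefore not whole numbers. Wells with over 1000 transcripts and at most 2% *Kcnq1ot1*, the authors' thresholds, were kept; the second threshold removed none. The study states fewer MCs past these thresholds than the 2477 kept here and left out a small subset with macrophage features; no MC was left out by cluster here, and the reason for the gap was not established. Spike-in rows (1.11e-05% of transcripts) were left out. No step to remove doublets was applied. In each library the 96 of 192 barcodes with fewer transcripts were taken as unused, which the labels do not state. Of the wells kept as cells, 17 carried such a barcode. Levels are sums over a mouse's or a library's cells per 10,000 transcripts outside genes named Gm plus a number. Thinned shares used 1000 UMIs per cell, drawn from all genes, those named Gm plus a number included.

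Genotypes were compared over mice, since cells are not replicates, by limma 3.58.1 (R 4.3.3, trend) on log2(CPM + 1) after TMM scaling, on genes that reached 10 transcripts in 3 or more mice, with Benjamini-Hochberg adjustment. A count model had been planned and was replaced because the values are corrected counts. Fold changes on this scale understate the change of low genes. IEG-high and IEG-low cells were compared by an exact two-sided sign-flip permutation over mice. Ratios carry exact 95% intervals that cover counting error only. Python 3.11.15, numpy 2.4.6, scipy 1.17.1, pandas 2.3.3 and matplotlib 3.10.9 were used. The fits were tested on simulated data. Gene positions are from GENCODE release 21 (GRCm38) and promoter windows from RefSeq (GRCm38.p6).

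The Notch genes and the other lists were chosen with earlier results of these data known. All 10 members were named, with, for each role among the other pathway genes, the gene highest in MCs and in Myh11-GFP cells, any gene called between genotypes, and the 5 genes most correlated with *Notch3* and *Hes1* among those with at least 100 transcripts; *Dlk1*, *Neurl1b*, *Psen2* and the coactivator and corepressor genes whose genotypes did not overlap were named after their values were seen. Not every gene of the pathway list is reported here by name. Alternatives covered scaling, filters, test, left-out mice, wells and libraries, thinning and the split of the cells.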

Additional observations from a re-analysis of the deposited data

Results flagged for a closer look

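*Heyl* stood at 1.88 per 10,000 in Myh11-GFP library 13, apart from the 3 other libraries at 1.41 to 1.44 by Dixon's criterion. That criterion takes no account of counting error. The counting interval of library 13, 1.51 to 2.31, overlapped those of libraries 14 (1.07 to 1.88), 15 (1.05 to 1.84) and 16 (0.988 to 2.04). All 10 members were examined in this way, and chance flags about 1 in 20 such groups.

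Barcodes taken as unused held 2.13% to 4.21% of a mouse's transcripts and 3.39% of those in the Myh11-GFP libraries, wells kept as cells included. Members were found on them above the 3 counts that a count of 0 allows. Over all MC libraries these barcodes gave 13 transcripts of *Notch1*, 23 of *Notch2*, 4 of *Jag1*, 19 of *Rbpj* and 79 of *Hes1*. In the Myh11-GFP libraries they gave 5 of *Notch2*, 29 of *Notch3*, 4 of *Rbpj*, 11 of *Hes1* and 9 of *Heyl*. *Hes1* therefore had the most transcripts on these barcodes in the MC libraries and *Notch3* in the Myh11-GFP libraries, as in the cells themselves. Per 10,000 on these barcodes of the MC libraries, *Notch2* and *Jag1* stood at 0.733 and 0.127, above 0.510 and 0.0516 in MCs. *Notch1*, *Rbpj* and *Hes1* stood at 0.414, 0.605 and 2.52, below 0.649, 0.686 and 3.44 in MCs.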

How the results depend on the processing

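The loss of talin-1 gave no call for a Notch gene under any alternative run, and 0 genes overall except for 7 without KO replicate 1 (range 0 to 7 over left-out mice) and 3 with the sets of unused barcodes as a block. Mice with the same number did not deviate together (r = 0.20, −0.25 and −0.41), and the fit with the replicate number as a block called 0 members and 0 genes. Small differences changed sign: over left-out mice *Notch2* ran from −0.27 to 0.062, *Rbpj* from −0.016 to 0.21 and *Hes1* from −0.22 to 0.39 on the log2 scale, and *Hes1* was at −0.0029 without cells with macrophage or keratinocyte markers and −0.052 with the sets as a block. *Notch1* stayed positive, from 0.48 to 1.12 over left-out mice.

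For IEG-high against IEG-low cells, *Notch1* was at 0.0095 when the outer ranges of 3 were compared, 0.35 after thinning, 0.49 with all transcripts as denominator, and −0.17 to 0.011 over left-out mice. *Notch2* was at −0.19 after thinning. *Notch3* was at −0.043 between outer ranges and −0.059 to 0.35 over left-out mice, and *Rbpj* at 0.30 with all transcripts. Among the ranges of Myh11-GFP cells, the number of members higher in contractile-high cells was 5, and it was 1 after thinning, 3 without keratinocyte- or fibroblast-marked cells and 4 when the cells were divided at the median. In pericyte-high cells 2 were higher, and there the ratio of *Hey2* was 0.539 and that of *Notch2* 0.520. In each alternative the cells were ordered and divided anew. The cause of these changes was not tested.

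Of the values recomputed, 9 of 120 for the genotypes, 12 of 378 for the kinds of cell, 8 of 98 for the IEG comparison and 13 of 59 for the contractile ranges moved beyond the spread or changed sign. The DESeq2 alternative was not run, since the values are corrected counts. Alternatives on wells, libraries, sets, voom weights and pericyte markers were chosen after seeing the data.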

Other observations

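*Notch3*, *Jag1*, *Hes1* and *Hey2* had lower levels, with intervals apart, in some cells of the Myh11-GFP sort than in the other 247. These were the 83 cells with keratinocyte or fibroblast markers at 1% or more of their transcripts. *Jag1* was at 0.913 (0.652 to 1.24) per 10,000 in them and at 1.79 (1.53 to 2.07) in the others. The intervals of *Notch1* overlapped, at 0.228 (0.109 to 0.420) and 0.549 (0.413 to 0.714). Those of *Notch2* did too, at 0.639 (0.425 to 0.924) and 0.459 (0.336 to 0.612). These are counting intervals of 1 sample, and no test was made. The share of all genes with intervals apart between these groups of cells was not computed. Whether the members stand out from other genes here is therefore not known.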
